A study of Mus musculus with 55 samples.

Results

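The mouse dorsal hippocampus lies beside the lateral ventricle, whose choroid plexus can be taken up with the tissue at dissection. The level of Ttr, which encodes transthyretin and is the transcript for which choroid plexus epithelium is best known, was used to order 55 libraries of dorsal hippocampus. Ttr was expressed in CPM, the count of a gene scaled to the total gene count of its library. The 10 libraries with the highest Ttr CPM (Ttr-rich) were set against the 10 with the lowest (Ttr-poor) across 16167 genes, and the other 35 libraries belonged to neither class. The 20 libraries were thus chosen by a measured gene, so that every difference between the classes describes this choice, and Ttr itself was left out of the genes tested. A separate readout came from the 35 other libraries, which share no library with the 20: the slope of each gene on log2 Ttr CPM.

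The choroid plexus is a sheet of epithelium folded around fenestrated capillaries and stroma that hangs in each brain ventricle. Its epithelial cells secrete cerebrospinal fluid by moving sodium, chloride, bicarbonate and water across their apical face, seal the blood from that fluid with tight junctions, and carry hormones and vitamins such as thyroid hormone and folate into it. The transcription factor OTX2 is needed for the plexus to form and for its upkeep, and the epithelium is a site of prolactin receptor in the brain. Ciliated ependymal cells, which line the ventricle wall, and meningeal fibroblasts adjoin the plexus.

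Each library came from 1 adult C57BL/6J mouse, wild type (WT) or homozygous for a Cnih3 allele that lacks exon 4 (KO). CNIH3 is an auxiliary protein of AMPA-type glutamate receptors. Among WT mice there were 5 males, 7 estrus, 5 proestrus, 6 diestrus and 4 metestrus females, and among KO mice 7 males and 6, 4, 6 and 5 females of those stages. The WT mice came from a mixture of WT matings and of WT littermates of KO mice, no mouse had been treated, and the tissue was the dorsal-most part of the hippocampus, dissected by a single person and frozen. Ages by the labels were 10.86 to 23.71 weeks. Cnih3 ranged from 20.1 to 58.5 CPM in the 27 WT libraries and from 19.4 to 43.6 CPM in the 28 KO libraries, so the genotypes overlapped, and these gene counts take in the exons the KO allele keeps. Fewer cells of a type and less RNA per cell cannot be told apart in such bulk libraries.

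The Ttr-rich libraries were 2 WT males, 2 KO males, 2 WT and 1 KO in proestrus, and 1 each of KO metestrus, KO estrus and WT diestrus. The Ttr-poor libraries were 3 WT in estrus, 2 WT in metestrus, 2 KO males, and 1 each of KO metestrus, KO diestrus and KO estrus. Both classes thus held 5 KO libraries (two-sided Fisher's exact test, p = 1), and 4 of 10 rich against 2 of 10 poor libraries were male (p = 0.628). By stage, with males as a class of their own, 3 of 9 proestrus libraries were rich and 0 poor, whereas 1 of 13 estrus libraries was rich and 4 poor (permutation test over the 5 classes, p = 0.195). Age was 17.4 ± 3.66 weeks in rich and 18.2 ± 2.97 weeks in poor libraries (mean ± SD, n = 10 each, two-sided permutation test, p = 0.595). Total gene counts were 25881295 to 63547098 over the 55 libraries and did not pass a permutation test between the classes (p = 0.349), and the adjusted p over these 5 tests was 0.786 or more for each.

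One set of libraries stood apart before any comparison. The 7 diestrus mice under 14 weeks of age had a summed level of 6 nuclear RNAs, among them Malat1 and Meg3, of 522 to 886 CPM (median 662), against 831 to 4104 CPM (median 3101) in the other 48 libraries. One of the 7, WT diestrus mouse 549 (530 CPM), was Ttr-rich and the other 6 were among the 35 libraries, where their Ttr was 580 CPM at most. WT male mouse 1949 (831 CPM) was also Ttr-rich, and the other 8 rich libraries were at 2184 to 3951 CPM against 2103 to 3924 CPM in poor libraries. Results are therefore also given without these libraries, and the part of this difference in the results was not tested beyond that.

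**Figure D1:**
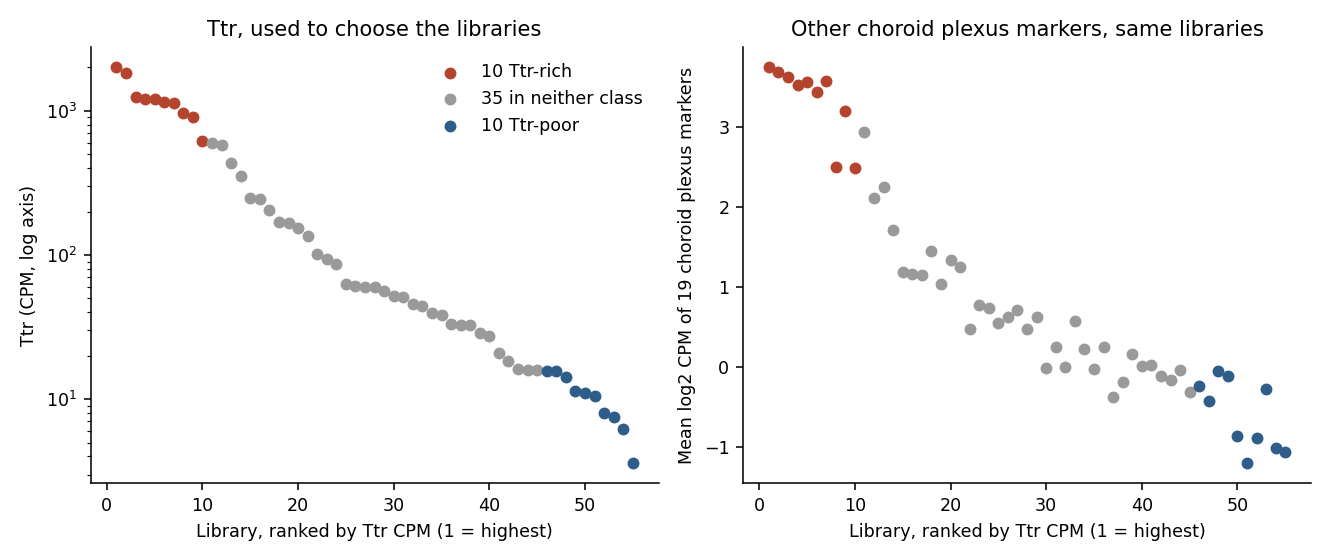
Ttr CPM (left, log axis) and mean log2 CPM of 19 other choroid plexus markers (right) for each of the 55 libraries, which are placed by their rank on Ttr with 1 the highest. Each point is a library, coloured by class; on the right the 10 rich libraries lie at 2.48 to 3.74 and the 10 poor libraries at −1.20 to −0.04.

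Ttr, by which the classes were chosen, reached 2007 CPM in KO proestrus mouse 12_4 and was 3.58 CPM in WT estrus mouse 2_1. The limits of both classes fell in a continuous range. The last library taken as rich, WT male mouse 2015, had 615 CPM, and the first not taken, WT proestrus mouse 20_2, had 595 CPM. At the other end the last library taken as poor, KO metestrus mouse 6_1, had 15.6 CPM and the first not taken, KO estrus mouse 2593, had 15.9 CPM.

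The label of choroid plexus was checked on 20 other markers of the epithelium, of which all but Lmx1a passed the filter of over 1 CPM in at least 10 libraries. Their mean log2 CPM was 2.48 to 3.74 in rich libraries (median 3.54), −0.37 to 2.93 in the 35 others (median 0.55) and −1.20 to −0.04 in poor libraries (median −0.64). The libraries 1 step outside the limits on Ttr were thus not all alike in the other markers, and 9 of the 10 rich libraries were among the 10 highest by this mean and 8 of the 10 poor among the 10 lowest. Ranked on Folr1 and Kl alone, the top 10 shared 8 libraries with the Ttr-rich class and the bottom 10 shared 6 with the poor class. Of the 19 markers 8 were over 1 CPM in fewer than 10 libraries outside the rich class, so that these genes entered the test only through the rich libraries and their difference follows from the filter.

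Promoter sequences are shown for 3 markers that carry the contrast: Kcne2 and Tmem72, among the genes with the largest differences, and Otx2, whose product binds the core TAATCC. They are the 250 bases before and 50 after the start given by RefSeq in GRCm38.p6, 5′ to 3′ on the gene's strand, with TAATCC or its reverse complement GGATTA in capitals. Kcne2 lies at chr16:92292139-92292438 (plus strand), Tmem72 at chr6:116716709-116717008 (minus strand) and Otx2 at chr14:48665060-48665359 (minus strand). RefSeq gives several starts for some genes, and of the 4 windows of Otx2 the 1 with the core is printed.
Kcne2: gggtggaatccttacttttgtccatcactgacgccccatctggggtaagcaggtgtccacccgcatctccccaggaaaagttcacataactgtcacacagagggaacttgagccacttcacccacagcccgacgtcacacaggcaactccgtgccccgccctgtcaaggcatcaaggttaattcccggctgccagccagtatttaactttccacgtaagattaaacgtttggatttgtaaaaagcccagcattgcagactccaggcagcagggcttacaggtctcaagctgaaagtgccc
Tmem72: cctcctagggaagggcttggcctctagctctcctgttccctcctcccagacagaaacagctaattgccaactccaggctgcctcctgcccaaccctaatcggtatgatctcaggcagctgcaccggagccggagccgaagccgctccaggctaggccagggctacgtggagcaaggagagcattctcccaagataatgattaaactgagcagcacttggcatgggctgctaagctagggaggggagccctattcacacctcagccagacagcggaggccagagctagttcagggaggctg
Otx2: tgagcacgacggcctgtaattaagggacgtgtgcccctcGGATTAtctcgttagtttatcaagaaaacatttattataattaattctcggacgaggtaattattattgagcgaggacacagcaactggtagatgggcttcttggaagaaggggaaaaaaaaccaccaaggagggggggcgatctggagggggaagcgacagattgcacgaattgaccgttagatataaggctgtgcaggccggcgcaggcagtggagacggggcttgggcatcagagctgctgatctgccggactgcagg
The core was searched on both strands and was found in these 300-base windows of 1 of the 15 tested markers with a promoter entry (6.67%), that of Otx2 itself, starting at base 40 of the window printed. It was found in 783 of 11313 tested genes with an entry (6.92%) and in 2320 of 32851 promoters in all (7.06%), and, counted by window as in the latter, in 1 of 23 windows of the markers (4.35%). These letters say nothing of sites outside the windows.

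Between the classes 350 genes (2.16% of those tested) were higher in Ttr-rich libraries and 31 (0.192%) were lower at a false discovery rate (FDR) under 0.05 in limma. The higher genes had log2 differences of 0.24 to 6.78 (median 0.88), of which 151 exceeded 1, 50 exceeded 2 and 24 exceeded 3. They summed to 4546 to 7705 CPM in rich (median 6315) and 3484 to 4777 CPM in poor libraries (median 3719). The lower genes had differences of −1.44 to −0.22 and 1 of them was below −1, while the median over all genes was −0.02. The CPM of the classes did not overlap for 55 genes higher in rich libraries (0.34% of those tested), and for 0 genes were all rich libraries below all poor libraries. Of 64 tested genes in 7 lists of choroid plexus function, 48 were higher and 0 lower (median log2 difference 1.32), and these 48 held 27 of the 50 genes with a difference above 2. Of the 64, 14 passed the filter only through the rich libraries, being over 1 CPM in fewer than 10 others. They are 5 of the 14 ion and water genes, 4 of 8 junction, 2 of 13 vitamin, 2 of 8 receptor, 1 of 12 secreted and 0 of 7 transcription factor genes, and for these the counts given below follow from the filter. Without WT diestrus mouse 549 and WT male mouse 1949, 372 genes were higher, of which 337 were among the 350. With the labelled groups in the model of the 20 libraries 78 genes were higher and 0 lower (limma, 1412 genes at an unadjusted p under 0.05). Of these groups only KO males (2 rich, 2 poor), KO metestrus and KO estrus (1 rich and 1 poor each) held both classes. That fit thus compares the classes within those KO groups alone and in no WT group. With the labelled groups in a model of all 55 libraries, added after the data were seen, 222 genes (1.37%) were higher and 4 (0.0247%) lower. Of the 222, 192 were among the 350.

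**Figure D2:**
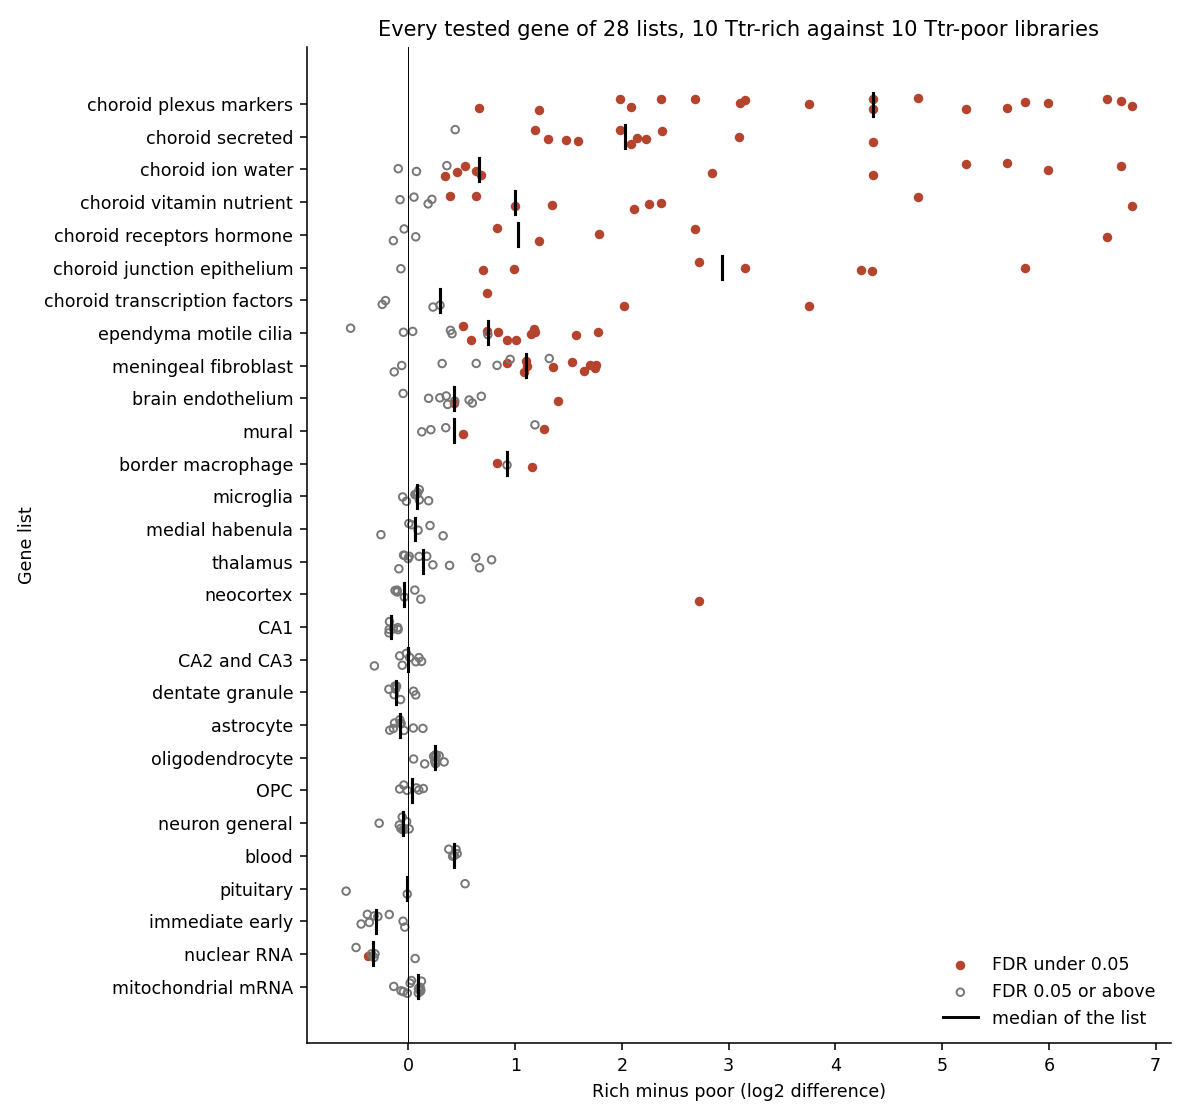
Log2 difference between Ttr-rich and Ttr-poor libraries (x axis) for every tested gene of 28 gene lists (y axis). Filled points have an FDR under 0.05, open points do not, and the black line is the list's median, which is 4.35 for the choroid plexus markers and lies between −0.16 and 0.00 for the CA1, CA2 and CA3, and dentate granule cell lists.

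The 19 tested markers were each higher in Ttr-rich libraries, with a median log2 difference of 4.35, and the classes did not overlap in 18 of them. These counts and the median take in the 8 markers that passed the filter only through the rich libraries, whose difference follows from the filter. Folr1, which encodes the folate receptor of the plexus (chr7:101858331-101870788), was 3.97 to 15.5 CPM in rich libraries (median 9.49) and 0 to 0.481 CPM in poor libraries (median 0.161). Every rich library was thus above every poor one, and 2 poor libraries had no read of the gene. The mean CPM was 46.3-fold higher and the fitted log2 difference 6.78 ± 0.59 (SE, n = 10 and 10, limma FDR 2.84e-09). The fitted value of such a gene depends on the offset added to counts of 0. Calml4, of the calmodulin-like family, differed 8.33-fold in mean CPM. At the low end of the markers, Cab39l (log2 difference 0.66) and Kl (1.22) were present throughout, at 26.8 to 44.6 and 11.1 to 16.0 CPM in poor libraries. Kl, which encodes the FGF23 co-receptor klotho, was 17.7 to 39.6 CPM in rich libraries (median 32.1), a mean 2.26-fold that of poor libraries.

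**Figure D3:**
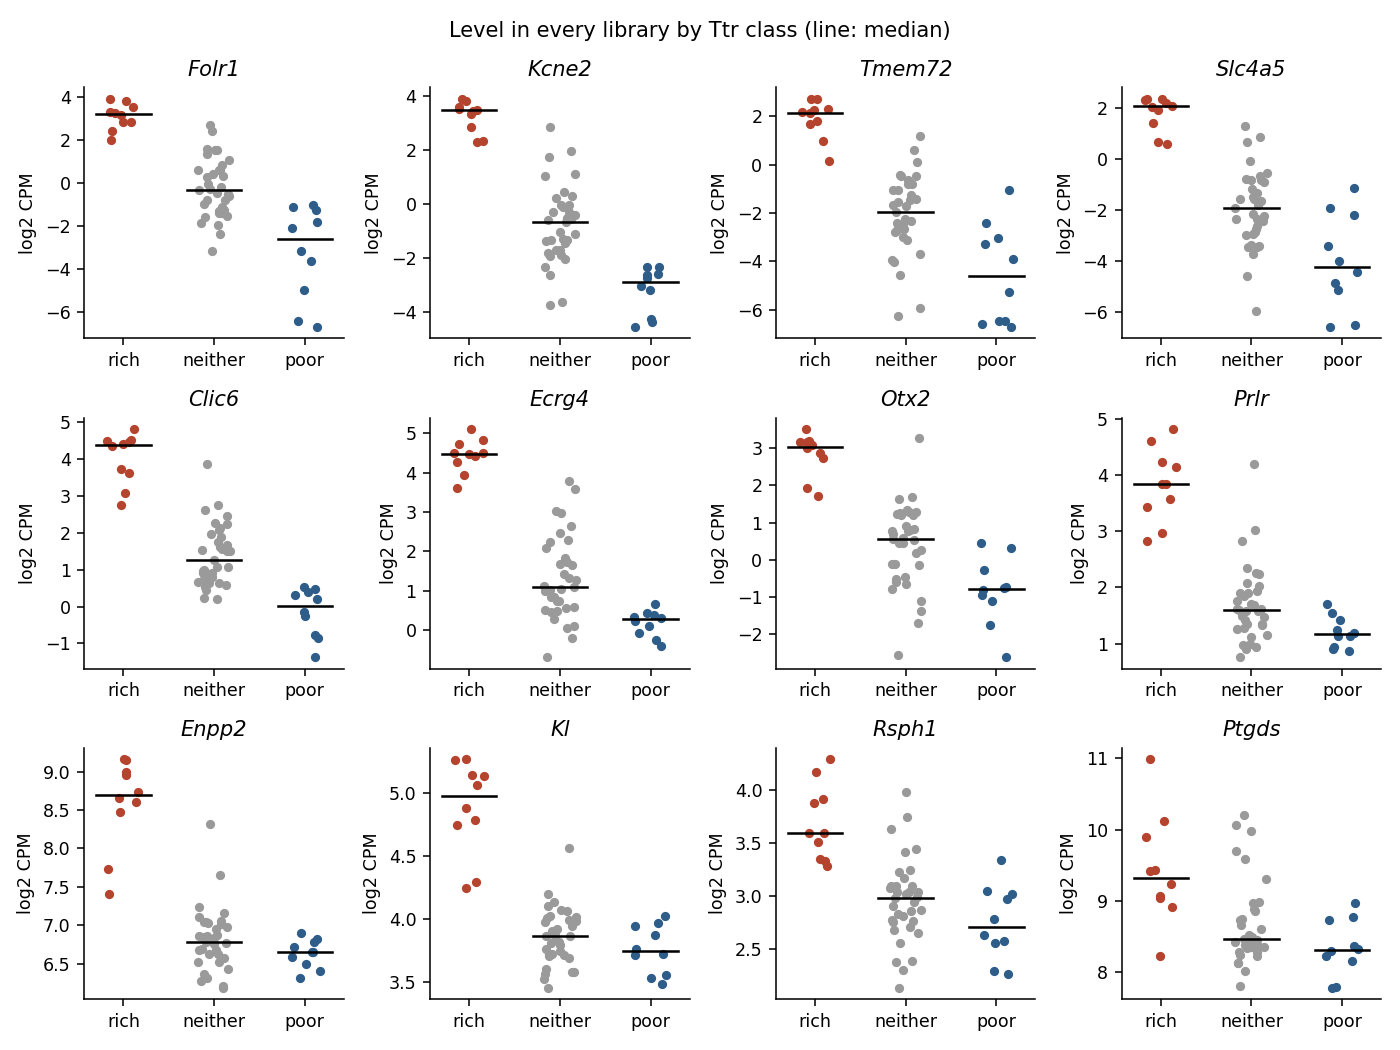
Log2 CPM of 12 genes in every library, by Ttr class (10 rich, 35 in neither class, 10 poor). Each point is a library and the line is the class median. Rich and poor libraries do not overlap for the 10 choroid plexus genes shown. They do for the cilia gene Rsph1 and for Ptgds, a gene of the meningeal fibroblast list.

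Genes of ion and water transport, the machinery of fluid secretion, were higher in 11 of 14 cases and lower in 0 (median 0.66). Kcne2, a beta subunit of potassium channels, had 4.54 to 15.3 CPM in rich (median 11.1) and 0.0340 to 0.192 CPM in poor libraries (median 0.124), an 89.2-fold difference of means. It was over 1 CPM in 8 libraries outside the rich class. Kcne2 is thus 1 of the 5 genes among these 14 that passed the filter only through the rich libraries. The bicarbonate cotransporter gene Slc4a5 was 1.48 to 5.28 CPM against 0 to 0.441 CPM (34.3-fold). The water channel gene Aqp1 was 0.731 to 3.43 CPM against 0 to 0.317 CPM (26.8-fold, 4 poor libraries at 0), and the potassium channel gene Kcnj13 differed 30.6-fold. Clic6, of the chloride intracellular channel family, was 6.26 to 28.6 CPM against 0.373 to 1.44 CPM (18.8-fold). The calcium channel gene Trpv4 differed by 2.84 on the log2 scale, and rich and poor libraries overlapped by 1 rich library. Other called genes of this list differed less, among them Slc12a2, the sodium-potassium-chloride cotransporter gene, by 0.34 (FDR 0.036). The cation channel gene Trpm3 differed by 0.45, Slc4a2 by 0.53, the carbonic anhydrase gene Car14 by 0.64 and the copper transporter gene Slc31a1 by 0.68. Slc4a10 (−0.10), Car12 (0.36) and Atp7b (0.07) did not pass the threshold.

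Of 12 tested genes for secreted proteins 11 were higher and 0 lower (median 2.03), while Igf2 and Lcn2 did not reach the filter. Of the 12, 1 passed the filter only through the rich libraries. Ecrg4 encodes a secreted peptide precursor. It was 12.5 to 35.7 CPM in rich (median 23.1) and 0.748 to 1.63 CPM in poor libraries (median 1.20), 20.1-fold in the means and 4.35 ± 0.21 on the log2 scale (limma FDR 1.37e-14). Enpp2, which encodes the lysophospholipase autotaxin, was the most abundant by read count, at 159 to 590 CPM (median 418) against 80.1 to 117 CPM (median 100), 4.17-fold. Its poor libraries kept a level that the channel genes Kcne2 and Aqp1 did not, and the classes again did not overlap. Sostdc1, an inhibitor of BMP and WNT signals, differed 3.81-fold, the coagulation factor gene F5 8.03-fold, and the angiotensin-converting enzyme gene Ace 4.17-fold. Igfbp2 (1.31), Lbp (1.48), Pcolce (2.22), Col8a2 (2.38), Col9a3 (1.58) and the ceruloplasmin gene Cp (1.19) were also higher in log2 difference, and Mdk (0.44, FDR 0.0998) was not called.

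Among 13 tested genes of vitamin, hormone and nutrient transport 9 were higher and 0 lower (median 1.00), and 2 of the 13 passed the filter only through the rich libraries. Slc16a8, Lrp2 and Mfrp were not tested. In addition to Folr1, the metalloreductase gene Steap1 was 1.91 to 7.57 CPM against 0.0232 to 0.272 CPM (25.5-fold). Retinoid genes were among those that differed: Rdh5, a retinol dehydrogenase gene, was 4.04 to 11.7 CPM against 0.824 to 2.49 CPM, and Abca4, a retinoid transporter gene, differed by 2.12. In contrast, Stra6, a gene of retinol uptake, differed by 0.22 (FDR 0.536). Slc13a4, a sulfate transporter gene, was the 1 marker with overlap, at 2.28 to 17.4 CPM against 0.987 to 2.34 CPM, and 9 of 10 rich libraries exceeded the highest poor one. The thyroid hormone transporter gene Slco1c1 (0.63), Steap2 (1.00) and the folate carrier gene Slc19a1 (0.39) were higher, while Slc29a4 (0.18), Slc23a2 (−0.08) and Abcc4 (0.05) did not pass the threshold.

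Receptors and hormone-related genes were higher in 5 of 8 cases and lower in 0 (median 1.03), and 2 of the 8 passed the filter only through the rich libraries. Prlr, the prolactin receptor gene (chr15:10177238-10349180), was 7.16 to 28.9 CPM in rich (median 14.7) and 1.86 to 3.22 CPM in poor libraries (median 2.26), 6.76-fold in the means. All 10 rich libraries were above the poor ones, and a KO estrus library in neither class had 17.9 CPM. Its ligand gene Prl, a pituitary transcript, was 1.32 to 45.8 CPM in rich and 1.61 to 68.3 CPM in poor libraries (log2 difference −0.58 ± 0.59, FDR 0.757), so a difference was not detectable beside this spread. Tmem72, a membrane protein gene, was 1.03 to 6.71 CPM against 0 to 0.481 CPM (log2 difference 6.55, 4 poor libraries at 0). The serotonin receptor gene Htr2c differed by 0.83 and the leptin receptor gene Lepr by 1.78. The insulin and growth factor receptor genes Insr (−0.14), Igf1r (−0.04) and Igf2r (0.07) did not pass the threshold.

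Of 8 tested genes of junctions and epithelial structure 7 were higher and 0 lower (median 2.94), and 4 of the 8 passed the filter only through the rich libraries. Cldn2, a claudin gene of the leaky epithelial junction, was 1.57 to 5.69 CPM against 0.189 to 0.556 CPM (9.72-fold). The keratin genes of simple epithelia did not overlap between the classes either, Krt8 at 12.6-fold and Krt18 at 15.2-fold. Krt18 ranged from 3.00 to 15.0 CPM in rich and from 0.0680 to 1.17 CPM in poor libraries. Wfdc2 differed 21.4-fold, Cldn1 by 2.72, Perp by 0.99 and Spint2 by 0.70 on the log2 scale, and the polarity gene Pard3 by −0.07 (FDR 0.780). Cldn3, Epcam, Cdh1 and Cdh3 were not tested.

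Transcription factors were fewer, with 3 of 7 tested genes higher and 0 lower (median 0.30). Otx2 (chr14:48657677-48673819) was 3.31 to 11.7 CPM in rich (median 8.48) and 0.153 to 1.37 CPM in poor libraries (median 0.580). The classes did not overlap and the means differed 11.8-fold (3.75 ± 0.30, limma FDR 7.49e-10). Msx1, a homeobox gene, was 2.44 to 25.0 CPM against 2.09 to 4.57 CPM, and 9 of 10 rich libraries exceeded the highest poor one. Foxj1, the master regulator of motile cilia, differed by 0.73 (FDR 0.00370), whereas Rfx3 (−0.25), Gmnc (0.23), Otx1 (0.30) and Ets2 (−0.22) did not pass the threshold. Lmx1a and Msx2 were not tested, and Lmx1a was 0.539 to 3.13 CPM in rich and up to 0.550 CPM in poor libraries.

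Lists of neighbouring cell types also held called genes. Of 17 tested genes of ependyma and motile cilia 11 were higher and 0 lower (median 0.74). Rsph1, a radial spoke gene of motile cilia, was 9.12 to 20.4 CPM in rich and 4.76 to 9.90 CPM in poor libraries (1.96-fold), with 9 of 10 rich libraries above the highest poor one. Fam183b, another cilia gene, was 8.74 to 14.2 against 8.84 to 16.0 CPM (log2 difference 0.04, FDR 0.909), and Ccdc153 differed by 0.59 (FDR 0.0424). Of 17 tested meningeal fibroblast genes 10 were higher and 0 lower (median 1.10), and the classes overlapped in all 17. The list summed to 363 to 2264 CPM in rich (median 772) and 271 to 564 CPM in poor libraries (median 379). Ptgds, the prostaglandin D synthase gene, made up most of this sum, at 305 to 2036 CPM against 218 to 492 CPM (1.10 ± 0.19, limma FDR 0.000426), while Igfbp6 (−0.06) and Islr (0.32) did not pass the threshold. Collagen and matrix genes of these cells, named after their values were seen, also differed, Col1a2 by 1.76, Fmod by 1.75 and Dcn by 1.65. With the labelled groups and all 55 libraries 8 ependymal and 6 meningeal genes were higher. The part of the meningeal transcripts in the choroid plexus results was not tested.

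The vessel lists were higher in fewer genes, 2 of 11 for endothelium (median 0.42), Itm2a and, named after its value was seen, Cdh5, and 2 of 6 for mural cells (median 0.43), Acta2 and Vtn. With the labelled groups and all 55 libraries 0 endothelial and 0 mural genes were called in limma, so these calls were lost. Plvap, a gene of fenestrated endothelium, was 17.4 to 40.6 CPM in rich and 24.2 to 48.6 CPM in poor libraries (log2 difference −0.05, FDR 0.897). Of 3 tested genes of macrophages at the brain's borders F13a1 and Pf4 were higher, and 1 of the 3 was higher with the labelled groups and all 55 libraries. In the 35 other libraries F13a1 had a negative slope on Ttr (−0.25, limma FDR 0.0440). The slopes of Pf4 (−0.03, FDR 0.815) and Mrc1 (−0.01, FDR 0.961) did not pass the threshold. Of 8 microglial genes 0 were called (median 0.08). The list of pituitary genes, 3 of which were tested, had 0 called.

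The lists of markers of the hippocampus itself and of its other neighbours held few called genes or none. In limma 0 of 6 CA1, 8 CA2 and CA3, 8 dentate granule cell, 8 general neuronal, 9 astrocyte, 12 oligodendrocyte, 6 oligodendrocyte precursor, 12 thalamus and 6 medial habenula genes were called in either direction, with list medians of −0.16 to 0.25. Over all genes tested 2.16% were higher and 0.192% lower, so that lists of this size would hold few calls in any case. In the order named, 0, 4, 2, 1, 2, 12, 3, 8 and 5 genes of these lists had a positive difference. Over all genes 6910 of 16167 did. Without WT diestrus mouse 549 and WT male mouse 1949, 1 thalamus gene was higher and 1 general neuronal gene lower. With the labelled groups and all 55 libraries 1 thalamus gene was higher. Prox1, which marks granule cells, was 59.7 to 115 CPM in rich and 62.2 to 109 CPM in poor libraries, and Fibcd1, a CA1 gene, was 50.3 to 77.5 against 55.2 to 77.1 CPM. Of 7 neocortex genes 1 was called, Sulf1, a heparan sulfatase gene named after its value was seen, with a log2 difference of 2.72 (0.302 to 1.52 CPM in poor libraries). Of blood and immediate early genes 0 were called, with medians of 0.43 and −0.30, and of 13 mitochondrial transcripts 0 (median 0.09). Of the 6 nuclear RNAs Rian (−0.38, FDR 0.0398) was lower.

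Outside all lists, 10 genes were taken for the largest increases with a slope of the same sign in the 35 libraries (unadjusted p under 0.05), so that their direction in both is fixed by this choice. Of these 8, all but 2900040C04Rik and Drc7, passed the filter only through the rich libraries. Defb11, a beta-defensin gene, was 0.629 to 2.16 CPM in rich libraries and at 0 in 7 poor libraries, with at most 0.0929 CPM in the others. Prr32 differed 27.5-fold, 2900040C04Rik 22.4-fold and Smim22 18.2-fold in mean CPM. The other 6 were Col8a1 (log2 difference 3.91), Wdr86 (3.78), Wfikkn2 (3.04), Rd3 (3.00), Drc7 (2.84), which encodes a cilia protein, and Cox8b (2.78). Rich and poor libraries did not overlap in any of the 10 but Rd3.

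The 31 genes lower in Ttr-rich libraries were small in size. The 10 named by the same rule were Gm44164 (−1.44), Gm44432 (−0.99), Gm38365 (−0.98), Pcdhb19 (−0.66), Ergic1 (−0.43), Stk32c (−0.37), Epha3 (−0.33), Ndst4 (−0.32), Rbm26 (−0.29) and Syne1 (−0.27). Gm44164 was 0.105 to 1.55 CPM in rich and 0.979 to 2.60 CPM in poor libraries. Stk32c, a kinase gene, was 8.69 to 11.8 against 10.8 to 16.3 CPM, so that even here the classes overlapped. Leaving out 1 library at a time moved the count of lower genes between 9 (WT proestrus mouse 4_1) and 67 (KO estrus mouse 9_1). With the labelled groups in the model of the 20 libraries the differences of Pcdhb19, Rbm26 and Syne1 turned positive, at 0.02 to 0.05. That fit compares the classes only within KO males, KO metestrus and KO estrus. In the model of all 55 libraries with the labelled groups, all 10 kept a negative difference and none passed the threshold (FDR 0.382 to 0.801, limma).

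The slope was taken on Ttr, the gene that ranked the libraries, but in the 35 libraries in neither class, none of which is among the 20. There 352 genes (2.18% of those tested) had a positive and 1142 (7.06%) a negative slope on log2 Ttr CPM at an FDR under 0.05. Of the 350 genes higher in Ttr-rich libraries 72 had a positive slope (20.6% of the 350 and 20.5% of the 352), and of the 31 lower genes 5 had a negative one. Of the 19 markers 17 had a positive slope and 0 a negative one. Their median slope was 0.67 log2 CPM per log2 unit of Ttr, against 0.005 over all genes. Kcne2 had a slope of 0.87, Slc4a5 of 0.85, Folr1 of 0.80 ± 0.06 (limma FDR 1.56e-13), Ecrg4 of 0.69 and Otx2 of 0.51 (FDR 2.95e-05). A slope near 1 means that a gene changed in proportion to Ttr. Of the 19 markers 8, Kcne2 among them, were over 1 CPM in fewer than 10 libraries outside the rich class. These 8 thus passed the filter only through the rich libraries. Genes with a level in the poor libraries had low slopes, such as Enpp2 (0.11), Kl (0.08) and Prlr (0.21, FDR 0.00980), and Slc13a4 (0.12) and Cab39l (0.05) did not pass the threshold. Over the 64 genes of the choroid plexus lists 25 slopes were positive and 7 negative. Of the ependymal genes 2 had a positive slope, and of the meningeal genes 0 a positive and 1 a negative one (limma), Ptgds having a slope of −0.02.

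**Figure D4:**
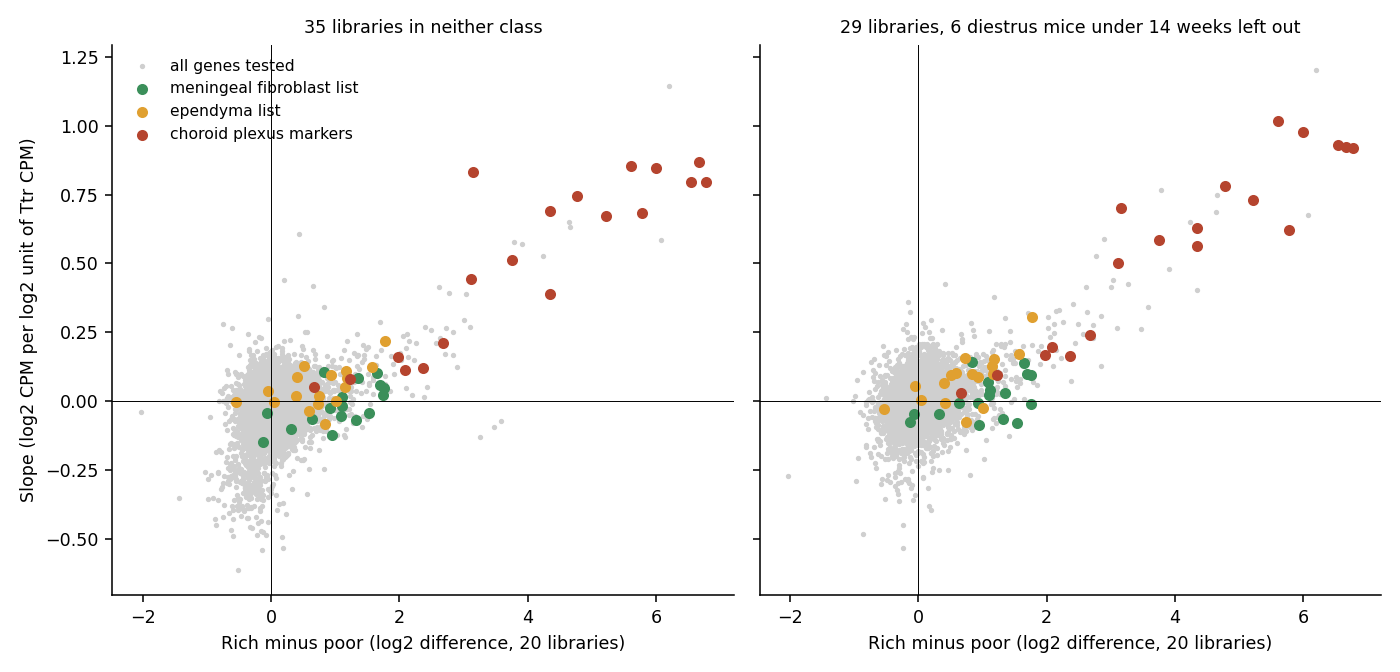
Log2 difference between the 20 chosen libraries (x axis) against the slope on log2 Ttr CPM (y axis) in the 35 other libraries (left) and in 29 of them, without the 6 diestrus mice under 14 weeks (right). Each point is a gene; Kcne2 lies at 6.68 and a slope of 0.87 in the left panel, while Cab39l, at 0.66 and 0.05, is the choroid plexus marker nearest the origin. Among the meningeal fibroblast genes Col1a2 lies at 1.76 and 0.05, and Cemip at −0.13 and −0.15.

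The counts over all genes turned on the 6 young diestrus mice among the 35 libraries. Without these mice 36 genes (0.223%) had a positive slope and 1 (0.00619%) a negative one. Leaving out KO diestrus mouse 643 alone left 75 positive slopes, and KO diestrus mouse 532 alone left 218 negative ones. Of the 36 genes 34 were among the 350 higher in Ttr-rich libraries and 17 were in the choroid plexus lists. Folr1 (0.92), Kcne2 (0.92), Tmem72 (0.93), Ecrg4 (0.63), Otx2 (0.58) and Clic6 (0.56) kept their slopes, and of the 19 markers 13 passed the threshold. Prlr (0.24, FDR 0.223), Kl (0.09, FDR 0.193) and Cldn2 (0.70, FDR 0.130) did not. With the labelled groups in the model 71 genes (0.439%) had a positive and 82 (0.507%) a negative slope, and 38 of the 71 were among the 350. The slope of Prlr then had an FDR of 0.0945.

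An interaction of class and genotype was also fitted, with 5 KO and 5 WT libraries in each class. Among WT mice neither the males nor any stage held both rich and poor libraries, whereas KO males, KO metestrus and KO estrus held both. A dependence of the difference on Cnih3 genotype thus cannot be told apart here from one on sex and stage. The interaction passed an FDR of 0.05 for 48 genes in limma, for 579 in DESeq2 and for 0 in edgeR's quasi-likelihood test, which had 3146 genes at an unadjusted p under 0.05. Leaving out 1 library gave 0 (WT male mouse 1949, among others) to 1585 genes (KO diestrus mouse 7_1) in limma. None of the genes named here was among the 48. For Folr1 the difference was −1.80 between KO and WT on the log2 scale (FDR 0.372).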

How the data were processed

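RNA of the dorsal hippocampus was extracted from the supernatant of an NP-40 lysate, and polyadenylated RNA was made into cDNA. It was sequenced by the authors with paired reads, 1 library per mouse, so that p-values set a difference against the spread between mice. The rich and poor classes were chosen by Ttr of the same libraries, so the p-values and FDRs of genes between them are a description only. The authors aligned reads to GRCm38 with STAR 2.7.9a and took gene counts from the reads with a unique alignment by featureCounts 2.0.3. They deposited these counts without normalization, in 55774 lines of which 287 repeat a gene, which left 55487 genes. The deposited CPM, log2 and transcript tables were not used here, nor was 1 column of the counts with no mouse in the labels.

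Groups were taken from the labels and the classes from Ttr CPM, with replicate numbers that follow sample order only. The test took genes over 1 CPM in 10 or more libraries, the filter of the study's methods, and 5 ribosomal genes and Ttr were left out, leaving 16167. TMM factors came from edgeR 4.0.16 and the models from voomWithQualityWeights of limma 3.58.1 under R 4.3.3, with FDR by Benjamini and Hochberg over all genes. Rich against poor was fitted on the 20 libraries, the slope on the 35 others, and the interaction with genotype on the 20. Permutation and Fisher's exact tests used SciPy 1.17.1. The members, gene lists and tests were chosen with earlier results of these data known.

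The genes named are those of the choroid plexus lists, Prl, up to 3 of the most expressed genes of every other list, and, outside all lists, the 10 largest increases and decreases with an FDR under 0.05 and a slope of the same sign with an unadjusted p under 0.05. Others are said to be named after their values were seen, and some single items are not reported here. Promoters came from RefSeq tables of GRCm38.p6. Alternatives were DESeq2 1.42.0, edgeR's quasi-likelihood fit, voom without the quality weights of libraries, other filters and other rankings. Further ones were females only, age or labelled groups in the model, and each library left out in turn. The steps were tested on simulated counts.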

Additional observations from a re-analysis of the deposited data

Results flagged for a closer look

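For each of 115 named genes the highest and lowest library of either class was set against the others of its class on the log2 CPM scale. In 19 cases the gap to the nearest library was a larger share of the range of the 10 libraries than Dixon's 95% critical value, among 230 classes checked, and chance alone marks about 1 in 20 classes.

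Among the Ttr-rich libraries, WT diestrus mouse 549 was lowest for Slc12a2 (4.14 log2 CPM), Slc23a2 (4.32) and Msx1 (1.38), and WT male mouse 2015 was lowest for Defb11 (−0.67) and Cfap206 (−2.94). WT male mouse 1949 was highest for Vtn (5.35).

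Among the Ttr-poor libraries, KO male mouse 2590 was lowest for Cab39l (4.77 log2 CPM), Rfx3 (5.44), Prox1 (5.99), Rbm26 (4.94) and Syne1 (7.70) and highest for Ccdc153 (3.46). KO male mouse 2016 was lowest for Col8a2 (−2.88), Malat1 (9.80), Meg3 (9.40) and Cdh5 (−3.80). KO diestrus mouse 7_1 was lowest for Smim22 (−6.82) and WT metestrus mouse 13_1 for Cfap206 (−6.46), both with no read of the gene. WT estrus mouse 8_3 was highest for Cd74 (3.00). None of the named genes passed the interaction of class with genotype at an FDR of 0.05.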

How the results depend on the processing

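The choroid plexus counts moved little. All 19 markers were higher under every alternative but the filter on mean CPM, under which 14 were higher. The ranking on Folr1 and Kl chose the classes by these markers themselves. Of the 19, 8 passed the main filter only through the rich libraries. The outcome for such genes follows in part from these choices. Aqp1, Slc4a5, Cldn2, Steap1 and Wfdc2 were not tested under that filter. A positive slope was found for 12 to 17 markers, with the 12 under that filter. Leaving out 1 library gave 19 higher markers and 16 to 18 positive slopes. The 381 genes called between the classes became 233 with edgeR, 212 with voom without quality weights, 78 with the labelled groups in the model, 226 with groups and all 55 libraries (added after seeing the data) and 249 with 5 libraries a class, and 278 to 429 with 1 library left out. The 350 higher genes became 232, 209, 78 and 222 under the first 4 of these and 267 to 410. The 31 lower genes became 1, 3, 0, 4 and 6 under these 5, 6 with DESeq2, 20 with no filter and 0 in females, and 9 to 67 with 1 library left out, of which WT proestrus mouse 4_1, KO male mice 2128 and 2129, WT estrus mice 2_1 and 5_3, KO estrus mouse 12_3, WT proestrus mouse 2_3, WT male mouse 2015 and WT metestrus mouse 13_1 each gave 20 or fewer. The 1494 slopes became 651 with edgeR, 906 without quality weights, 153 with the groups and 37 without the young diestrus mice (added after seeing the data), the 352 positive ones 136, 158, 71 and 36, with 211 under DESeq2 and 209 with no filter, and the 1142 negative ones 515, 748, 82 and 1. With 1 library left out these ranged over 305 to 2375, 75 to 735 and 218 to 1640. WT diestrus mice 548 and 569 and KO diestrus mice 532, 643, 644 and 645 lowered the positive count by over 1.5 times, and KO male mouse 1950, KO proestrus mouse 12_5, WT proestrus mouse 20_2 and WT estrus mouse 5_2 raised it. The 48 interactions became 0 with edgeR, 579 with DESeq2, 1 without quality weights and 2 with no filter. They became 0 to 1585 with 1 library left out, every library moving the count, so this count is not stable. With the labelled groups, the 20 libraries compare the classes only within KO males, KO metestrus and KO estrus. The differences of Pcdhb19 (0.0162), Rbm26 (0.0505), Syne1 (0.0393) and Grin2a (0.0629) turned positive in that fit. The slopes of Malat1 (0.00531) and Wfs1 (0.0128) turned positive without the young diestrus mice. The cause was not tested. No paired analysis was possible because the replicate numbers follow sample order and pair no mice.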

Other observations

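Several genes outside the lists are given here because their values stood out; they were named after those values were seen and no list or enrichment was tested. Cd74, the invariant chain of MHC class II, was 1.84 to 18.5 CPM in rich (median 12.0) and 1.36 to 8.21 CPM in poor libraries (median 2.12), a log2 difference of 2.11 (limma FDR 3.1e-05). The MHC class II genes H2-Ab1 (2.44), H2-Aa (2.15) and H2-Eb1 (1.21) differed in the same direction, and 3 to 7 of the 10 rich libraries exceeded the highest poor one. Lgals3, a galectin gene of macrophages, was 1.91 to 4.36 CPM against 0.288 to 2.31 CPM. The immunoglobulin gene Igkc was 0.331 to 9.79 CPM against 0.0959 to 2.09 CPM, and lost its call in 11 of the alternatives, left-out libraries included. In the 35 other libraries none of these 6 genes had a slope past the threshold (limma FDR 0.0667 to 0.699).

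Of 3 cilia genes outside the ependymal list, likewise picked for their values, Cfap126 was 3.63 to 8.15 CPM in rich and 1.66 to 3.51 CPM in poor libraries, with no overlap, and Cfap52 (log2 difference 1.52) and Cfap206 (2.63) were also called, whereas 6 of the 17 ependymal genes tested were not. The cell cycle inhibitor gene Cdkn1c was 2.18 to 6.95 CPM against 0.705 to 1.55 CPM. Among the lower genes, Bdnf, which encodes a neurotrophin, was 89.6 to 117 CPM in rich and 105 to 143 CPM in poor libraries (log2 difference −0.29, limma FDR 0.00546), and its FDR was 0.560 over all 55 libraries with the labelled groups in the model.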
